A study of Mus musculus with 2 samples.

Results

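The genes that encode the histone lysine methylases (writers) and demethylases (erasers) were examined for EGR1 binding in the mouse frontal cortex. The members were all protein-coding genes of GENCODE release M21 whose symbol starts with Kdm, Kmt or Setd, which gave 36 of 21951 genes. The Kmt and Setd genes (18) were taken as writers and the Kdm genes (18) as erasers. EGR1 ChIP-seq, which sequences the DNA pulled down with an antibody against this transcription factor, had been performed in duplicate on pooled frontal cortices of male C57BL6N/129SvEv mice at 6 weeks of age, and no mutant or treated group belongs to the series. The authors called peaks in each replicate and kept those with an irreproducible discovery rate (IDR) of 2% or less. The IDR is low for a peak that ranks high and alike in both replicates. The deposited list merges the replicates and gives a position on mm10 and an IDR for each of 12014 peaks. It holds no read counts and no values for either replicate. The depth behind a peak is therefore unknown, and no spread between replicates can be given. The input DNA was not analysed here. The tissue was a mixture of cell types, and a peak cannot be assigned to neurons or glia from this list.

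Writers transfer methyl groups to lysines of histone tails, mostly through a SET domain, and erasers remove them, either as amine oxidases of the LSD type or as dioxygenases with a JmjC domain. Methylation of H3K4 is typical of active promoters and enhancers, that of H3K36 of transcribed gene bodies, and that of H3K9, H3K27 and H4K20 of silent or compacted chromatin. EGR1 is a zinc finger factor that is induced by neuronal activity and binds a GC-rich element. Many of the genes described here are mutated in human neurodevelopmental disorders.

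A peak was counted for a gene when its centre lay in the gene body or within 10 kb of any annotated start of the gene (a transcription start site of GENCODE). By this count 26 of the 36 members, or 72.2% (95% Wilson interval 56.0 to 84.2%), had at least 1 EGR1 peak, compared with 39.5% of the other protein-coding genes (8662 of 21915). The difference was 32.7 percentage points (Newcombe interval 16.5 to 44.6). Within 2 kb of a start, 23 members (63.9%, 47.6 to 77.5%) and 29.5% of the other genes had a peak, a difference of 34.4 points (18 to 48). The members held 50 peaks in all and none of these was counted for more than 1 member. Of the members, 15 (41.7%) had 2 or more peaks, against 13.7% of the other genes (difference 28 points, 13.5 to 44.1). The intervals treat genes as independent and cover counting error only, and the list was not tested for enrichment.

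**Figure D1:**
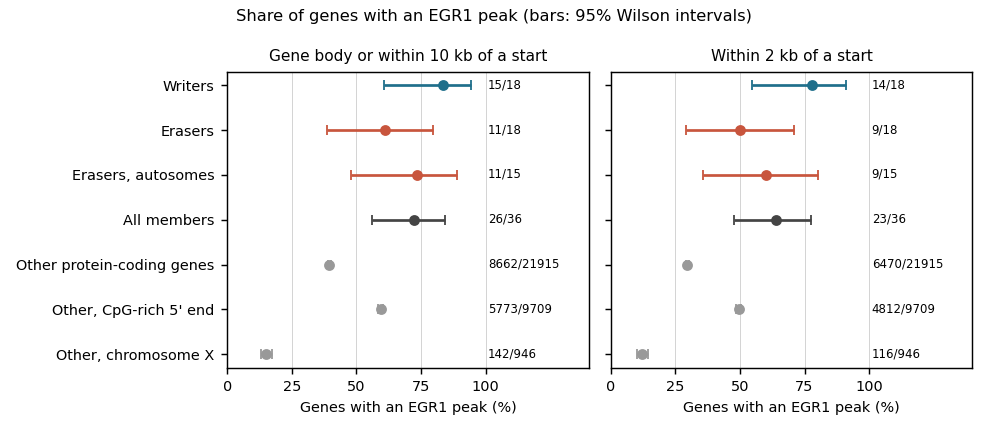
Share of genes with an EGR1 peak (x axis, percent) for writers, erasers, all members and other protein-coding genes, by the gene body or 10 kb of a start (left) and by 2 kb of a start (right); points are shares, bars are 95% Wilson intervals and the fractions give the genes counted. The members sat at 72.2% and 63.9%, above the 39.5% and 29.5% of other genes, whereas other genes with a CpG-rich 5′ end reached 59.5% and 49.6%.

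The members differed from other genes in properties that go with EGR1 peaks in this list, namely CpG content, length and number of starts. A CpG-rich 5′ end, here an observed/expected CpG ratio of at least 0.6 and a GC content of at least 50% within 500 bp of the 5′ end, was present in 31 of the 36 members (86.1%) and in 44.3% of the other genes. Among genes with such a 5′ end, 22 of 31 members (71.0%) had a peak by the gene body or 10 kb, and the share of the other genes was 59.5% (difference 11.5 points, Newcombe interval -6.1 to 24.5). Without a CpG-rich 5′ end, 4 of 5 members and 23.7% of the other genes had a peak. Within 2 kb of a start, 2 of 5 such members and 13.6% of such other genes had one. Among genes with a CpG-rich 5′ end, the shares within 2 kb of a start were 67.7% and 49.6% (difference 18.2 points, 0.55 to 31.9). The gap between the members and other genes was thus smaller, and for the wider region its interval included 0, once CpG-rich genes were compared with each other. For 2 or more peaks the shares among CpG-rich genes were 41.9% and 20.8% (difference 21.1 points, 5.5 to 38.4), and for 3 or more 22.6% and 7.2% (15.4 points, 4.2 to 32.6). Members were also longer, with a median gene length of 48.2 kb against 17.4 kb, and had a median of 6 annotated starts against 3. In the 20 to 100 kb class, which held 27 members, 77.8% of the members and 45.1% of the other genes had a peak. Below 20 kb the numbers were 2 of 5 members and 31.3% of the other genes, and above 100 kb 3 of 4 members and 61.6%. These properties overlap with each other, and their part in the higher share of the members was not tested.

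The sequences below are shown because they are the peaks near a start with the lowest IDR among erasers and writers and so the most reproducible binding at these genes. They are the plus strand of mm10, and only the longest stretch of each peak outside annotated untranslated sequence is given. Capitals mark an exact GCGTGGGCG or GCGGGGGCG on either strand for Kdm3a and Kdm4a, the forms of the EGR1 element searched here. For Kdm1a, Kmt2a and Setd5, whose peaks hold no exact element, capitals mark sites that differ from it at 1 base. The stretches are chr6:71633311-71633543 for Kdm3a, chr4:118179515-118179601 for Kdm4a, chr4:136602724-136602805 for Kdm1a, chr9:44881543-44881749 for Kmt2a and chr6:113077178-113077364 for Setd5.
Kdm3a: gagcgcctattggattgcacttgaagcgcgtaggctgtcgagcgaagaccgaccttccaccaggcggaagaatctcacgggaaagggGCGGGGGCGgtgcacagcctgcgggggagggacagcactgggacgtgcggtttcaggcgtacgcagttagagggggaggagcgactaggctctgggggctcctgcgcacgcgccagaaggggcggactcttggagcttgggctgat
Kdm4a: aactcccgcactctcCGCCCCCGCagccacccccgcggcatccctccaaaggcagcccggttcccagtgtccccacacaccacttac
Kdm1a: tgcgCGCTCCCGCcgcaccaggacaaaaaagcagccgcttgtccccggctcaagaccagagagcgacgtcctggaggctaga
Kmt2a: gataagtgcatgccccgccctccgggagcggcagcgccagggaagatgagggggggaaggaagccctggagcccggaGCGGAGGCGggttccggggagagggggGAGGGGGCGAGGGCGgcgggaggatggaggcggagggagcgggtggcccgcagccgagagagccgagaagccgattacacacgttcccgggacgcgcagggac
Setd5: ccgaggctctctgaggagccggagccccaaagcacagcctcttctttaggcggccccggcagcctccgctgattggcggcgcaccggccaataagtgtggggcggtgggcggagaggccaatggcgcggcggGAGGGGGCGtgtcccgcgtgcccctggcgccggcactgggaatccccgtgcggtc
The peak of Setd1a, which had the lowest IDR of the writers, lay wholly in annotated untranslated sequence and is not printed; it held neither an exact element nor a site with 1 mismatch.

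Of the writers of H3K4 methylation, 6 of 7 had a peak and 5 of 7 had it within 2 kb of a start. The shares of the other protein-coding genes were 39.5% and 29.5%. Kmt2a, the catalytic subunit of an MLL complex, had its peak of lowest IDR (6.15e-08) on chromosome 9 from 44881543 to 44881749, 350 bp upstream of the start. The centre was 82 bp from a start of the antisense gene AC061963.1. This IDR placed the peak among the 4.51% of all peaks with the lowest IDR. Another Kmt2a peak, inside the gene and in sequence annotated as 3′UTR of a transcript, ran from 44829006 to 44829255 and had an IDR of 0.00136. Kmt2c, which monomethylates H3K4 at enhancers and is the longest member at 227 kb, had a single peak, 779 bp upstream of its start on chromosome 5 from 25499496 to 25499627 (IDR 8.88e-08). The centre was nearer, at 495 bp, to the start of the noncoding gene 4831440E17Rik. Its relative Kmt2d had only a peak of high IDR (0.0114) 9735 bp from a start, on chromosome 15 from 98880814 to 98881063. This peak was centred 38 bp from the start of the neighbouring gene Rhebl1. Thus of this pair of enhancer methylases Kmt2c had a peak within 2 kb of its own start and Kmt2d did not, and the only peak of each was nearer to the start of another gene. Kmt2b, the closest relative of Kmt2a, had no peak by the rule, and the nearest peak was 10.9 kb from a start.

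Both SET1 genes, whose products trimethylate H3K4 at promoters, had several peaks. Setd1a had 3 peaks, of which that from 127777018 to 127777146 on chromosome 7, 67 bp upstream of a start, had an IDR of 5.38e-08. A further peak 66 bp downstream of a start had an IDR of 0.012, and the last was centred 668 bp from a start of Orai3 (IDR 0.00391). The 2 peaks at the starts of Setd1a thus stood at opposite ends of the IDR range. Setd1b held 4 peaks, the most of any member, but only the intronic one, 2117 bp downstream of a start (IDR 0.00116), was nearest to Setd1b itself. Its lowest IDR, 1.01e-06, belonged to a peak on chromosome 5 from 123132343 to 123132606 that lay 9718 bp from the Setd1b start and 14 bp from that of Rhof. The peak 534 bp upstream of Setd1b, from 123141527 to 123141790, had an IDR of 0.000145 and was centred 7 bp from the start of the noncoding gene AI480526. A further peak, outside the gene from 123171834 to 123172083 (IDR 0.00103), was 952 bp from a start of Hpd. Setd7, which monomethylates H3K4 and several non-histone proteins, had 3 peaks, all in its gene body. The peak from 51559696 to 51559835 on chromosome 3, in an intron 1113 bp downstream of a start and 114 bp from the annotated gene Gm38200, had an IDR of 2.73e-07, and that in the 5′UTR, 118 bp downstream, had an IDR of 1.81e-06.

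**Figure D2:**
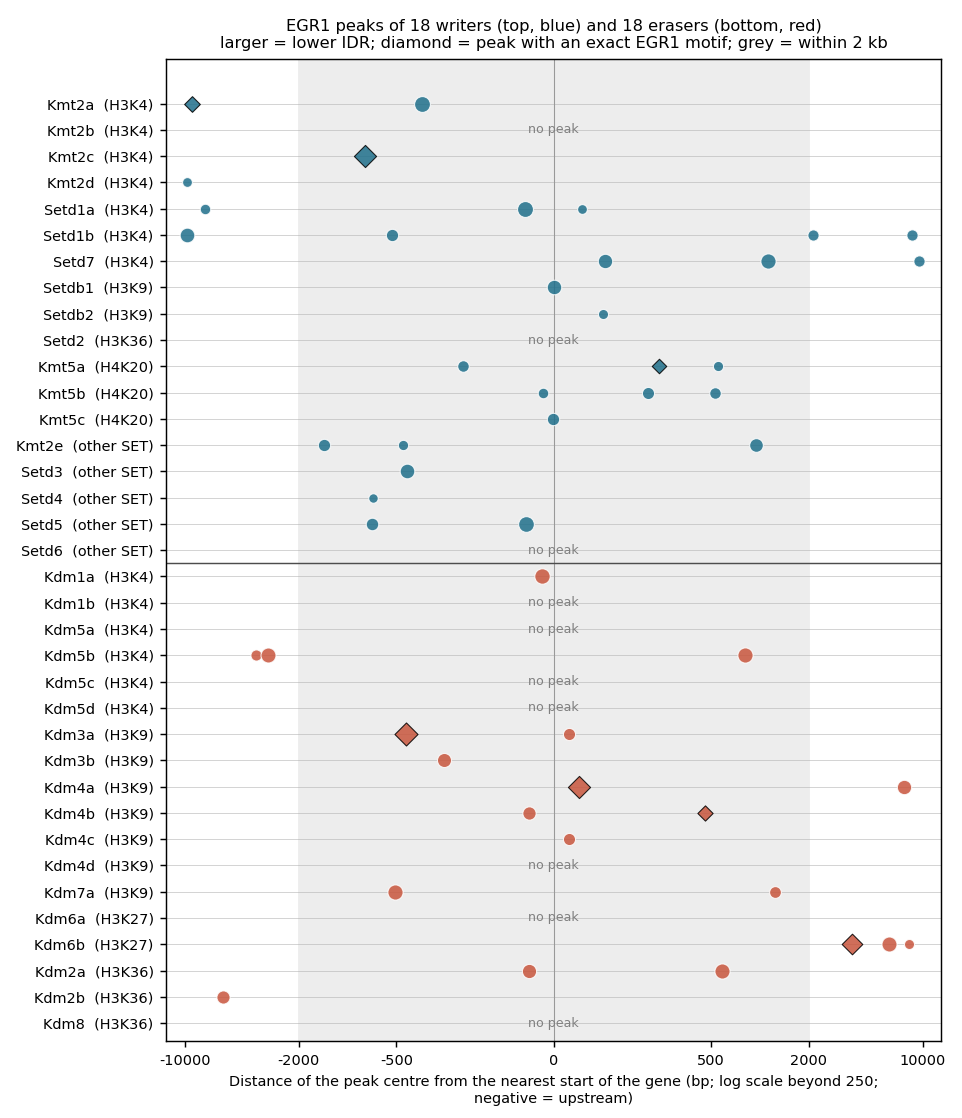
Each EGR1 peak of the 36 members by the distance of its centre from the nearest start of the gene (x axis, bp, linear to 250 and logarithmic beyond), with writers in blue above the line and erasers in red below; larger points have a lower IDR, diamonds hold an exact GCGTGGGCG or GCGGGGGCG and the grey band spans 2 kb to each side. Of the 50 peaks, 36 lay inside the band, and 10 members had no peak.

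Among the erasers of H3K4 methylation only 2 of 6 had a peak, and both had it within 2 kb of a start. Kdm1a (LSD1), the amine oxidase of the CoREST complex, had 1 peak on chromosome 4 from 136602692 to 136602805, 26 bp upstream of a start, with an IDR of 1.74e-07. Kdm5b, a JmjC demethylase of trimethylated H3K4, had 3 peaks on chromosome 1. The intronic one, from 134560929 to 134561112 and 814 bp downstream of the start, had an IDR of 2.97e-07, and those 3066 and 3668 bp upstream had IDRs of 4.62e-07 and 0.00125. Its paralogues Kdm5a, Kdm5c and Kdm5d had none. The nearest peak was 53.1 kb from a start of Kdm5a and 64.8 kb from one of Kdm5c. Kdm5c lies on chromosome X, where 15.0% of the other protein-coding genes had a peak, and Kdm5d on chromosome Y, where the list holds 0 peaks. Kdm1b (LSD2) had its nearest peak at 39.2 kb. The H3K4 writers thus had a peak in 6 of 7 genes and the H3K4 erasers in 2 of 6, with Wilson intervals of 48.7 to 97.4% and 9.7 to 70.0% that overlap. The share was 39.5% of the other protein-coding genes and 59.5% of those with a CpG-rich 5′ end, and both intervals include the latter. Among the 6 writers is Kmt2d, whose only peak was centred 38 bp from a start of Rhebl1.

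Of the H3K9 erasers, 6 of 7 had a peak, in each case within 2 kb of a start (85.7%, Wilson interval 48.7 to 97.4%). The share within 2 kb was 29.5% of the other protein-coding genes and 49.6% of those with a CpG-rich 5′ end. Kdm3a, which removes mono- and dimethyl groups from H3K9, had the lowest IDR of all 50 member peaks, 1.83e-08, at the peak from 71633311 to 71633543 on chromosome 6, 437 bp upstream of a start. Only 0.916% of all peaks had an IDR this low or lower. Its other peak, centred 35 bp downstream of a start, had an IDR of 0.0002. Kdm3b had 1 peak 254 bp upstream of its start on chromosome 18 (34776668 to 34776918, IDR 3.87e-06). Kdm4a, which also acts on H3K36, had a peak 58 bp downstream of a start from 118179515 to 118179676 on chromosome 4 (IDR 9.11e-08), and an intronic one, nearer to a start of St3gal3 than to its own, with an IDR of 2.13e-06. Its relatives Kdm4b and Kdm4c, with the same substrates, had peaks at a start too. Kdm4b had a peak 57 bp upstream, on chromosome 17 from 56325880 to 56326129 (IDR 2.04e-05), and a further one 456 bp downstream (IDR 0.00232). Kdm4c had a single peak on chromosome 4 from 74251846 to 74252095, in the 5′UTR and 35 bp downstream of a start (IDR 0.000204). Kdm7a, a demethylase of H3K9 and H3K27, had peaks 508 bp upstream on chromosome 6 from 39207208 to 39207385 (IDR 3.05e-07) and 1245 bp downstream (IDR 0.000391). The former was nearer, at 229 bp, to a start of the noncoding gene Gm49041. The exception was Kdm4d, a further H3K9 demethylase, whose nearest peak was 224.1 kb away.

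Both H3K9 writers among the members had a single peak within 2 kb of a start, centred within 250 bp of it, and their IDRs lay far apart. Within 2 kb of a start, a peak was found for 29.5% of the other protein-coding genes and for 49.6% of those with a CpG-rich 5′ end. Setdb1, which silences retroelements through trimethylated H3K9, had 1 peak, from 95357070 to 95357333 on chromosome 3, centred on a start (distance 0 bp, IDR 1.44e-06). Setdb2 had 1 peak on chromosome 14 from 59440630 to 59440890, in the 5′UTR and 113 bp downstream of a start, with an IDR of 0.00722. This peak was also 212 bp from a start of Cab39l.

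For H3K27 the members are erasers alone, since the writers of this mark, Ezh1 and Ezh2, carry other symbols; neither had a peak. Kdm6b (JMJD3), which removes trimethyl groups from H3K27 and is 15.2 kb long, had 3 peaks on chromosome 11, none within 2 kb of its annotated starts. An intronic peak from 69409863 to 69410112, 3687 bp downstream of a start, had an IDR of 1.2e-06 and an exact GCGGGGGCG. The peak from 69397859 to 69398108 (IDR 4.32e-07) was 250 bp from a start of Tmem88, and that with an IDR of 0.00786 was 115 bp from a start of Naa38. The peak with the lowest IDR counted for Kdm6b thus lay outside the gene, next to the start of a neighbour. Kdm6a (UTX), on chromosome X, had its nearest peak 590.2 kb from a start.

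Of the genes acting on H3K36, Setd2, the writer of trimethylated H3K36, had no peak, and the nearest was 39.2 kb from a start. Kdm2a and Kdm2b carry a CXXC domain that binds unmethylated CpG. Kdm2a had a peak 587 bp downstream of an internal start on chromosome 19 from 4333238 to 4333425 (IDR 3.51e-07) and another 58 bp upstream of a start from 4397063 to 4397243 (IDR 2.66e-06). The former had only 3 CpGs and a CpG ratio of 0.22, and the latter 16 CpGs and a ratio of 1.12. Kdm2b, despite its 19 annotated starts, had a single intronic peak on chromosome 5 from 122894255 to 122894518, 5807 bp from the nearest of them, with an IDR of 2.61e-05. Kdm8, a JmjC protein, had its nearest peak at 47.0 kb.

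All 3 writers of H4K20 methylation had a peak within 2 kb of a start, in each case with one centred within 250 bp of it. Kmt5a, Kmt5b and Kmt5c have 13, 17 and 12 annotated starts, against a median of 3 for other protein-coding genes. Within 2 kb of a start, a peak was found for 29.5% of the other genes and for 49.6% of those with a CpG-rich 5′ end. The lowest IDRs of the H4K20 writers ran from 0.000137 to 0.00062. Those of the H3K4 writers with a peak were lower, from 5.38e-08 for Setd1a to 1.01e-06 for Setd1b, except for Kmt2d (0.0114). The peaks behind the values of Setd1b and Kmt2d were centred at a start of a neighbouring gene. Kmt5a, which adds the first methyl group to H4K20, had 3 peaks on chromosome 5, the lowest IDR being 0.00062 for that from 124445159 to 124445408, 209 bp upstream of a start. Kmt5b, which makes the di- and trimethyl forms, had 3 peaks on chromosome 19. The peak from 3767612 to 3767868, 217 bp downstream of a start, had an IDR of 0.00021, and the others had IDRs of 0.00062 and 0.00343. Its partner in this reaction, Kmt5c, had 1 peak of 345 bp, centred 1 bp from a start on chromosome 7 from 4739980 to 4740324 (IDR 0.000137).

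Of the remaining SET genes, 4 of 5 had a peak, beside 39.5% of the other protein-coding genes. Setd5 had 2 peaks on chromosome 6, from 113077178 to 113077421 (65 bp upstream of a start, IDR 8.62e-08) and 708 bp upstream (IDR 9.72e-05). The centres of these peaks were 33 and 520 bp from starts of the antisense gene Gt(ROSA)26Sor, which is transcribed from the same region. Kmt2e, a SET protein with no known methylase activity of its own, had 3 peaks, the lowest IDR being 9.28e-06 for the intronic peak from 23435268 to 23435531 on chromosome 5, 951 bp downstream of a start. Its other peaks were nearer to starts of the noncoding gene 5031425E22Rik, at 64 and 269 bp. Setd3, which methylates a histidine of actin, had 1 peak on chromosome 12 from 108179620 to 108179869 (IDR 1.1e-06). It lay 431 bp upstream of Setd3 and 7 bp from a start of Ccnk. Setd4 had a single peak on chromosome 16 from 93604634 to 93604894, 701 bp upstream of a start, with the highest IDR of any member peak, 0.0186. No peak was listed for Setd6, a methylase of the NF-kB subunit RelA, whose nearest peak was 11.8 kb away.

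The 10 members with no peak by the rule were 3 writers (Kmt2b, Setd2 and Setd6) and 7 erasers (Kdm1b, Kdm4d, Kdm5a, Kdm5c, Kdm5d, Kdm6a and Kdm8). At the 10 kb limit, Setd1b and Kmt2d each had a peak just inside, at 9718 and 9735 bp, and the nearest peaks of Kmt2b and Setd6 were just outside, at 10862 and 11803 bp. Of these 10 genes, 9 had a CpG-rich 5′ end, the exception being Kdm5d. Kdm2b, Kdm4a, Kdm4c and Kdm6b had a peak, and their outermost 5′ end was not CpG-rich. That class describes the outermost end and not the sequence of the peaks. The highest CpG ratio among the peaks of each gene was 0.64 for Kdm4a, 0.92 for Kdm4c, 0.93 for Kdm6b and 0.34 for Kdm2b. A gene missing from a list of peaks that passed a 2% IDR may still be bound at a level or in a share of cells too low to pass in both replicates.

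Writers had a peak more often than erasers, but the difference was within its error. The shares were 83.3% of the writers (15 of 18, Wilson interval 60.8 to 94.2%) and 61.1% of the erasers (11 of 18, 38.6 to 79.7%), which is a difference of 22.2 points with a Newcombe interval of -7.0 to 47.2. Within 2 kb of a start they were 77.8% (14 of 18) and 50% (9 of 18), a difference of 27.8 points (-3.3 to 52.6). Writers were defined by symbol, and some have no known histone target. Of the 13 with one, 11 had a peak by the gene body or 10 kb, and the difference from erasers was 23.5 points (-9.1 to 48.6). A CpG-rich 5′ end was present in 18 of 18 writers and in 13 of 18 erasers (72.2%), and the median gene length was 39.2 and 60.3 kb. The part of these properties in the difference was not tested. All 3 members on the sex chromosomes are erasers and had no peak. Other protein-coding genes had a peak in 15.0% of cases on chromosome X (142 of 946) and in 0 of 182 on chromosome Y, against 41.0% on the autosomes. With autosomal genes alone, the share of erasers was 73.3% (11 of 15) and the difference 10.0 points (-17.5 to 37.5). When a peak was counted only if no start of any other annotated gene was nearer, 11 of 18 genes in each class had a peak and the difference was 0.

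The peaks of erasers had a lower median IDR than those of writers, although fewer erasers had a peak. The median IDR was 2.40e-06 over the 20 eraser peaks (binomial 95% interval of the median 3.51e-07 to 0.0002) and 0.000415 over the 30 writer peaks (9.28e-06 to 0.00136). An IDR of 0.001 or less was found for 17 of the 20 eraser peaks (85%) and for 17 of the 30 writer peaks (56.7%). Taking the lowest IDR of each gene, the medians were 3.51e-07 for the 11 erasers with a peak and 1.44e-06 for the 15 writers with a peak, beside 2.30e-05 for the 8662 other genes with a peak. For Kdm6b, Kmt2d, Setd1b and Setd3 the peak with the lowest IDR lay nearer to a start of another protein-coding gene. The intervals overlap, peaks of 1 gene are not independent of each other, and the difference was not tested. The lowest IDR of a gene also depends on its number of peaks, with a mean of 1.92 for members with a peak and 1.56 for other genes with a peak. Over all 50 member peaks the median IDR was 0.000117 (quartiles 5.99e-07 and 0.00123), and over the 10039 peaks counted for other protein-coding genes alone it was 0.000238.

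**Figure D3:**
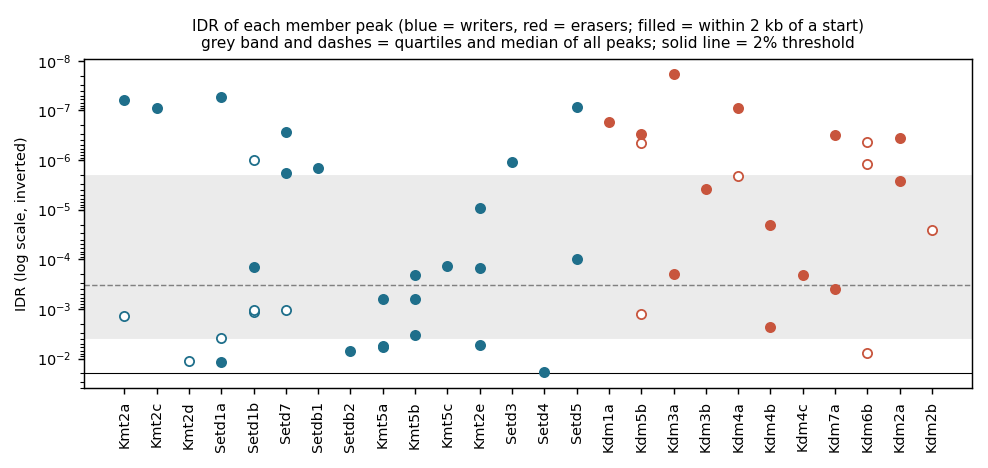
IDR of each peak (y axis, log scale, lowest IDR at the top) for the 26 members with a peak, writers in blue and erasers in red; filled points lie within 2 kb of a start of the gene, the band and dashes give the quartiles and median of all peaks on assembled chromosomes and the line is the 2% threshold. Kdm3a has the lowest IDR, 1.83e-08, and Setd4 the highest, 0.0186.

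Of the 50 member peaks, 36 lay within 2 kb to either side of a start of the gene. By the centre of the peak, 23 of the 50 were in the promoter (up to 2 kb upstream of any annotated start), 13 in an intron, 3 in a 5′UTR, 2 in another exon, 1 in a 3′UTR and 8 outside the gene. To compare them with the peaks of other genes, the distance to the nearest start of any protein-coding gene was taken for both, a measure chosen after seeing the data. By this distance 84% of the member peaks (42 of 50, Wilson interval 71.5 to 91.7%) and 71.0% of the other peaks (70.1 to 71.9%) lay within 2 kb. Within 250 bp the shares were 44% (22 of 50, 31.2 to 57.7%) and 47.6% (46.7 to 48.6%). The intervals overlapped at both distances. Of the member peaks, 26 were centred upstream of the nearest start of the member and 24 at or downstream of it.

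Several member peaks sat at the start of a neighbour. The nearest start belonged to another annotated gene for 17 of the 50 peaks and to another protein-coding gene for 8. Centres within 2 kb of a start of another protein-coding gene were seen for 9 peaks, of which 3 (at Setd3, Setd4 and Setdb2) were also within 2 kb of the member's own start. At Setd3, the peak was the only one of the gene and lay nearer to Ccnk, and at Kmt2d it lay nearer to Rhebl1, so that counting only peaks nearest to the gene's own start among protein-coding genes left 24 members with a peak (66.7%, against 31.3% of the other genes). Which of the genes at a shared promoter is affected by binding cannot be told from peak positions.

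Exact EGR1 elements were found in 7 of the 50 member peaks, or 14.0% (Wilson interval 7.0 to 26.2%), compared with 18.2% of the peaks of other protein-coding genes and 16.6% of all peaks on assembled chromosomes. The peaks with an element were those of Kdm3a, Kdm4a, Kdm4b, Kdm6b, Kmt2a, Kmt2c and Kmt5a, and each held 1. GCGGGGGCG accounted for 5 of the 7 sites and GCGTGGGCG for 2. The sites are given below with 10 bases to each side, read 5′ to 3′ along the strand that carries the element in capitals, to show how the flanks vary around it. They start at 71633398 on chromosome 6 (Kdm3a), 118179530 on chromosome 4 (Kdm4a), 56326525 on chromosome 17 (Kdm4b), 69409934 on chromosome 11 (Kdm6b), 44829108 on chromosome 9 (Kmt2a), 25499585 on chromosome 5 (Kmt2c) and 124440204 on chromosome 5 (Kmt5a).
Kdm3a: cgggaaagggGCGGGGGCGgtgcacagcc
Kdm4a: gggggtggctGCGGGGGCGgagagtgcgg
Kdm4b: caaaggcgggGCGGGGGCGgggcgccgcg
Kdm6b: gtacaaagccGCGGGGGCGgggctagcgc
Kmt2a: gggtggagcgGCGTGGGCGagtctggctc
Kmt2c: cgcgctggggGCGGGGGCGggaggcgcct
Kmt5a: ctgtctggacGCGTGGGCGcctgtggttc
The sites lay 17 to 61 bp from the centre of their peak. The GCGTGGGCG form was found at the internal peak of Kmt2a (IDR 0.00136) and in an exon of Kmt5a (IDR 0.00563). The GCGGGGGCG form was found in peaks with IDRs from 1.83e-08 (Kdm3a) to 0.00232 (Kdm4b).

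With 1 mismatch allowed, 44 of the 50 member peaks (88.0%, 76.2 to 94.4%) and 73.3% of the peaks of other genes held a site. For peaks within 2 kb of a start the shares were 91.7% (78.2 to 97.1%) and 82.5%, and those with an exact element 13.9% (6.1 to 28.7%) and 22.6%. Member peaks were also richer in GC (median 64.7% against 62.3% for other genes), and the part of this in the shares was not tested. In the RefSeq promoter windows of GRCm38.p6, which run from 250 bases before a start to 50 after it and matched 28 of the 36 members, an exact element was present for 2 members (Kdm3a and Kdm7a, 7.1%) and for 5.5% of the 16494 other protein-coding genes matched. The EGR1 peaks of Kdm7a held no exact element, so the one in its promoter window lay outside them.

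**Figure D4:**
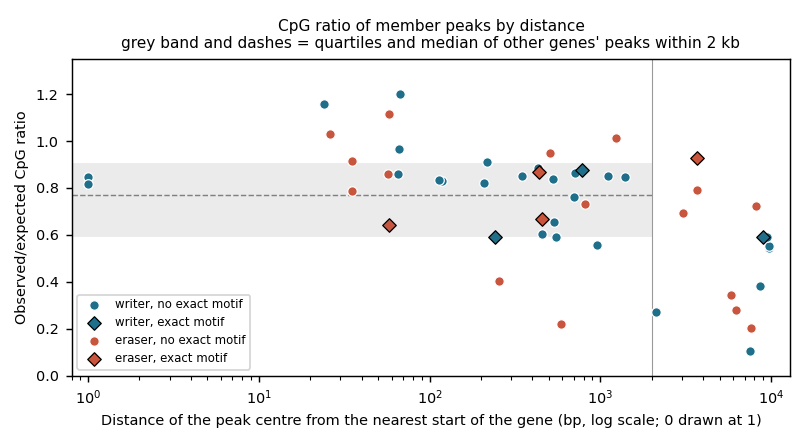
Observed/expected CpG ratio of the 50 member peaks (y axis) against the distance of their centre from the nearest start of the gene (x axis, bp, log scale), writers in blue and erasers in red, diamonds with an exact element; the band and dashes give the quartiles and median of other genes' peaks within 2 kb. The median ratio was 0.85 for the 36 peaks within 2 kb and 0.55 for the 14 farther away.

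Member peaks were CpG-rich near the start and less so away from it. The median CpG ratio was 0.85 for the 36 peaks within 2 kb (binomial 95% interval 0.79 to 0.87), slightly above the 0.77 of the peaks of other genes at this distance (0.76 to 0.77). For the 14 peaks farther away it was 0.55 (0.27 to 0.72). The peaks of writers and erasers had median ratios of 0.83 and 0.76, with intervals of 0.59 to 0.85 and 0.64 to 0.92 that overlap. The highest ratio, 1.20, belonged to the Setd1a peak 67 bp upstream of a start, and the lowest, 0.10, to the Setd1a peak near Orai3.

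Genes of histone lysine methylation under other symbols had a peak in 57.1 to 66.7% of cases, by list. These shares stand beside 39.5% of the other protein-coding genes and 59.5% of those with a CpG-rich 5′ end. Of 17 further writers 11 had a peak (64.7%, Wilson interval 41.3 to 82.7%), among them Nsd1 and Ash1l, H3K36 methylases, with IDRs of 2.42e-06 and 9.06e-06 at their starts, whereas the Polycomb methylases Ezh1 and Ezh2 had none. Smyd5 had the lowest IDR of this group, 1.65e-08, at a peak 8900 bp from its nearest start. Of 6 further erasers 4 had a peak, including Phf8 on chromosome X (IDR 2.26e-07), while Uty, the Y-linked relative of Kdm6a, had none. Among 14 partner subunits 8 had a peak (57.1%, 32.6 to 78.6%). These included Rbbp5 and Men1, subunits of the H3K4 methylase complexes, with IDRs of 1.81e-07 and 2.36e-07, and all 3 CoREST genes (Rcor1, Rcor2 and Rcor3), which partner Kdm1a. Wdr5, Ash2l and Dpy30, core subunits of the same complexes, had no peak. Of other chromatin modifiers, the histone deacetylase genes Hdac1 to Hdac11 had a peak in 9 of 11 cases (81.8%, 52.3 to 94.9%) and the TET and DNMT genes, which oxidise or add DNA methylation, in 4 of 6. Tet2 and Tet3 had 3 and 5 peaks, and none was listed for Tet1. The Wilson intervals of all these lists include both the 72.2% of the members and the 59.5% of CpG-rich genes, and those of the partner subunits, the further erasers and the TET and DNMT genes include the 39.5% as well. Within 2 kb of a start the shares were 47.1% of the further writers, 33.3% of the further erasers and 42.9% of the partner subunits. They were 63.6% of the deacetylases and 66.7% of the TET and DNMT genes. The members stood at 63.9%, CpG-rich other genes at 49.6% and all other genes at 29.5%.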

How the data were processed

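EGR1 ChIP-seq peaks from male mouse frontal cortex at 6 weeks were used as deposited. After trimming, the authors aligned reads to mm10 (Bowtie), used SPP on each replicate, and deposited a merged list of peaks with an IDR, read like a q-value, of at most 2%. The submitters' processing notes also name cutadapt 11.2, Bowtie2 2.2.9 and bedtools 2.26.0. No replicate values or read counts were in the file, so depth is unknown.

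The coordinates, whose counting is not stated, were taken to follow the BED convention, and were set against GENCODE M21 and the GRCm38.p6 sequence. Peaks were counted for a gene by their centre, and 76 peaks on scaffolds were left out. Shares have Wilson intervals, differences of shares Newcombe intervals and medians binomial intervals, all at 95%, and no p-value was computed. Writers and erasers were told apart by symbol, and the histone target of each gene is background knowledge. Every member was described with its peak of lowest IDR, and sequences were printed for up to 3 writers and 3 erasers with the lowest IDR near a start, other than on chromosome 18. The members and lists were chosen with earlier results of these data known. Alternatives covered the IDR threshold, the starts, the distance, the overlap and the assignment of shared peaks. The counting was checked on simulated data with pysam 0.24.0, scipy 1.17.1, matplotlib 3.10.9, pandas 2.3.3 and numpy 2.4.6 under Python 3.11.15.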

Additional observations from a re-analysis of the deposited data

How the results depend on the processing

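The share of members with a peak ran from 61.1 to 78.8% over 11 alternatives, and the share within 2 kb of a start from 58.3 to 69.7% over 8, all within the intervals of the values reported. The lowest of the former came from counting only peaks nearest to a start of the gene itself among all annotated genes, and the highest from autosomal genes alone, both chosen after seeing the data, as was the comparison of CpG-rich genes. With peaks of an IDR of 0.001 or less, 63.9% of the members and 28.9% of the other genes had a peak. The difference between writers and erasers ran from 0 to 23.5 points over 11 alternatives, and its interval included 0 in each. It fell to 11.1 points at an IDR of 0.01 or less, where Kmt2d and Setd4 lost their only peak, and to 5.56 points at 0.001, where Setdb2 did too. The 14.0% of member peaks with an exact element became 88.0% with 1 mismatch allowed, a looser criterion by construction. No replicate could be left out, because the list is merged.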
